A study of Homo sapiens with 12 samples.

Results

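K-562 erythroleukemia cells carrying only a 3xTY1 epitope tag were compared 24 hours after transfection with the siRNA si2992, directed at MYB, or with the siGENOME non-targeting control siRNA. This comparison uses 6 of the 12 libraries of the series, 3 per siRNA, chosen by the cell line and siRNA named in their labels. The other 6 libraries come from K-562 lines that carry wild-type MYB or the D152V form of MYB and also received si2992. All lines were stable and held in G418, and 3 individual experiments were performed per group. Nothing else in the labels says whether replicates came from separate cultures, so the p-values measure the spread between these libraries. Poly(A) RNA was sequenced from strand-marked libraries as 125-base paired-end reads, and the values are FPKM, the fragments mapped to a gene scaled by the length of its transcripts and by the mapped fragments of the library. K-562 derives from a single patient's leukemia and carries the BCR-ABL1 fusion kinase, and 1 siRNA against MYB was used in 1 tag-carrying line, so other siRNAs and lines are not covered.

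MYB is a transcription factor of immature blood cells. It binds short DNA elements through a repeated helix-turn-helix domain and recruits the coactivators CBP and p300 through its transactivation domain. In the erythroid and myeloid lineages its level is high in progenitors and declines as the cells mature, and many leukemia lines depend on it for growth.

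Before the results, 1 library has to be set apart. The FPKM values of MYB siRNA replicate 1 summed to 1215578, against 685016 to 798362 in the other 5 libraries. Over all tested genes its correlation with the other MYB siRNA libraries was 0.924 and 0.925, and the other pairs within a group reached at least 0.985. Cytosolic ribosomal protein genes held 23.2% of its FPKM total, against 16.9% and 16.1% in the other MYB siRNA libraries and 12.1% to 14.3% in the controls. Counts over all genes and the values that moved most with it are therefore also given without that library, and every named call was also made without it. The mRNAs of 10 of 10 erythroid markers were present, while the platelet markers GP9 and PF4, the granulocyte marker ELANE and the B cell marker MS4A1 were listed at 0 in all 6 libraries. The T cell marker CD3D had 17.0 to 23.4 FPKM in the controls and 73.4, 21.8 and 16.0 in MYB siRNA replicates 1 to 3, and the summed levels of the 3 epithelial markers were 55.9 to 59.1 in the controls and 43.0 to 126 after MYB siRNA. KRT18, an epithelial keratin gene, was called higher, with 149, 150 and 131 FPKM in the controls and 608, 262 and 182 after MYB siRNA (limma adjusted p = 0.0482, and 0.0111 without replicate 1). The part of such transcripts in the results was not tested. In bulk RNA, fewer cells of a kind and less RNA per cell cannot be told apart.

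The target was strongly reduced in every treated library. MYB (ENSG00000118513, GRCh38 chromosome 6, 135181308 to 135219172) stood at 124, 132 and 104 FPKM in the control libraries and at 26.1, 32.9 and 31.5 after MYB siRNA. The groups did not overlap, and the mean after MYB siRNA was 25.1% of the control mean. The log2 change of (FPKM + 1) was -1.96 with a standard error of 0.13 (limma adjusted p = 2.74e-05, with all 12 libraries sharing 1 estimate of the spread), and it was -1.86 without MYB siRNA replicate 1. Its relative MYBL2, a cell cycle regulator, had 74.5, 80.1 and 76.4 FPKM in the controls and 75.7, 61.4 and 57.3 after MYB siRNA. MYBL2 did not pass the test (limma adjusted p = 0.165), but passed it without MYB siRNA replicate 1 (log2 change -0.37, limma adjusted p = 0.0101).

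Across the transcriptome more genes fell than rose. Of 12551 genes with at least 1 FPKM in 3 or more of the 6 libraries, 1035 fell (8.25%) and 558 rose (4.45%) at a limma adjusted p under 0.05. Without MYB siRNA replicate 1, 1766 fell (14.1%) and 1004 rose (8.0%), together 22.1%, and 1008 of the decreases and 523 of the increases were called with and without that library. The 3 values of one group lay wholly above those of the other for 4747 genes (37.8%), and for 1590 of the 1593 called genes. The share of decreases among calls was 65.0% in the values as deposited. It was 53.9% after quantile normalization, which called 9.05% of genes lower and 7.74% higher, and 51.3% after median-ratio scaling, which called 6.49% lower and 6.16% higher. The median log2 change of all tested genes was -0.03. With only the 6 libraries compared, 14 genes were called lower and 4 higher, and 1534 and 1020 had an unadjusted p under 0.05. With only the 5 of these that leave out MYB siRNA replicate 1, 1856 were called lower and 1109 higher. Leaving out control replicates 1, 2 or 3 gave 149, 161 and 351 decreases and 43, 62 and 161 increases. Leaving out MYB siRNA replicate 2 gave 1554 decreases and 1147 increases, and leaving out replicate 3 gave 1494 and 1010.

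**Figure D1:**
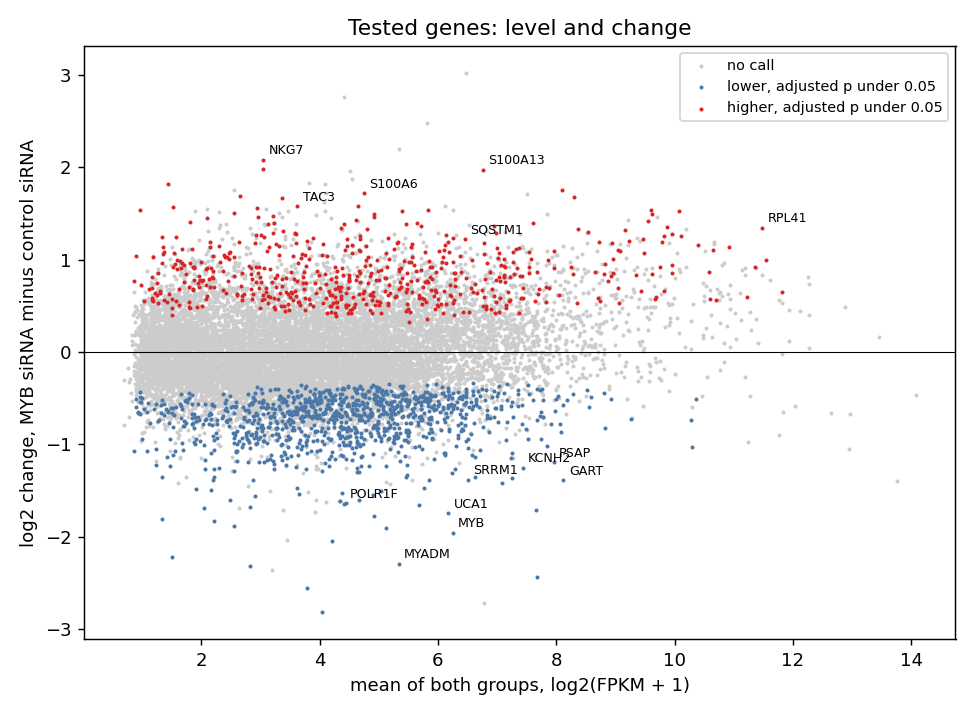
Each point is 1 tested gene, with the mean of both groups in log2(FPKM + 1) on the horizontal axis and the log2 change, MYB siRNA minus control siRNA, on the vertical axis; blue marks the 1035 genes called lower, red the genes called higher and grey the genes without a call. MYB lies at -1.96 and GART at -1.39, while S100A6 lies at 1.72; 3 mitochondrial genes listed at 0 in the controls (MT-ATP6, MT-ATP8 and MT-CO3) fall outside the axes.

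Besides MYB, the largest decreases that held with and without MYB siRNA replicate 1 included genes of iron export, RNA polymerase I, protein palmitoylation and the cell surface. Promoters of 3 of them are printed here because they hold the letters of a MYB recognition element, AACNGNC, that was searched on both strands. The lines give the 250 bases before the annotated RefSeq start (GRCh38.p14), 5′ to 3′ in the direction of the gene, with each match in capitals. In these 3 promoters every match lay on the strand opposite to the gene, so the capitals spell the reverse complement of the element. The promoter of POLR1F is chr7:19709038-19709287, that of ZDHHC9 chrX:129843887-129844136 and that of SLC40A1 chr2:189580787-189581036, all on the minus strand.
POLR1F: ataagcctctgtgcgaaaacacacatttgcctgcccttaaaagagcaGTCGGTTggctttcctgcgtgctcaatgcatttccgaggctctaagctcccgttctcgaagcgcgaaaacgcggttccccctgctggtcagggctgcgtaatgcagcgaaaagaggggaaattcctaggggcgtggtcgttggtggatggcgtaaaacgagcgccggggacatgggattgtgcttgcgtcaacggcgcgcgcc
ZDHHC9: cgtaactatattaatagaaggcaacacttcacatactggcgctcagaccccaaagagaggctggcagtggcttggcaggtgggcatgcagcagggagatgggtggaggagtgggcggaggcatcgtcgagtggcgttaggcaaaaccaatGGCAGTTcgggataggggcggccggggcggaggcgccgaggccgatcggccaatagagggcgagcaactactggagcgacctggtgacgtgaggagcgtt
SLC40A1: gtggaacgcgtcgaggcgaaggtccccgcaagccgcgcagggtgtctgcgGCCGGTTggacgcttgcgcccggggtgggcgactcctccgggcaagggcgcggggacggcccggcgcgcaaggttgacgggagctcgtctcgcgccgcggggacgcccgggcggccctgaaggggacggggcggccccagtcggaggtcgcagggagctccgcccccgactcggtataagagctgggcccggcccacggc
Counting 50 more bases after the start, 6 of the 11 promoters available for the 12 largest decreases held a match, as did 2 of 8 for the largest increases. Over all 35116 promoters of the same length the share was 32.2%. It was 33.5% of 820 promoters of genes that fell, 32.1% of 427 of genes that rose and 33.8% of 9253 promoters of tested genes, so the shares of the called genes lay near the background. A match is a description of these letters, not a binding site.

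POLR1F, a subunit of RNA polymerase I, which transcribes ribosomal RNA genes, had 29.8, 34.6 and 29.2 FPKM in the controls and 7.95, 10.6 and 9.51 after MYB siRNA. The treated libraries lay close together and far below the controls (log2 change -1.64, standard error 0.16, limma adjusted p = 4.50e-04). ZDHHC9, a palmitoyltransferase that acts on RAS proteins, went from 17.2, 18.5 and 17.4 FPKM to 4.86, 6.03 and 5.39 (log2 change -1.54, limma adjusted p = 1.65e-04). ENPP3, an ecto-nucleotidase known as a marker of basophils and mast cells, went from 9.86, 10.9 and 10.1 FPKM to 2.67, 3.22 and 2.56 (log2 change -1.57, limma adjusted p = 0.00135). For these genes no MYB siRNA library stood apart from the other two.

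In other leading decreases MYB siRNA replicate 1 was the lowest library by far. SLC40A1, which encodes ferroportin, the iron exporter, had 28.7, 24.1 and 32.7 FPKM in the controls and 3.25, 9.87 and 18 after MYB siRNA (log2 change -1.61, and -1.03 without replicate 1). MYO16, an unconventional myosin, had 5.60, 5.68 and 4.36 FPKM and then 0.210, 1.25 and 1.60 (log2 change -1.69, and -1.35 without replicate 1). SBNO1, a helicase-like nuclear protein, had 31.9, 31.4 and 30.8 FPKM and then 4.88, 12.2 and 13.6 (log2 change -1.63, and -1.22 without replicate 1). The groups did not overlap in any of the 3 genes.

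FGF13, an intracellular member of the fibroblast growth factor family that binds sodium channels, fell from 43.0, 47.4 and 39.9 FPKM to 10.4, 16.4 and 16.7 (log2 change -1.55, limma adjusted p = 0.00529). NKIRAS2, a small GTPase-like inhibitor of NF-kappa-B signalling, fell from 41.6, 43.9 and 47.0 FPKM to 4.64, 19.6 and 18.5, with replicate 1 far the lowest (log2 change -1.78, limma adjusted p = 0.0180, and -1.17 without replicate 1). The myeloid membrane protein gene MYADM fell to 20.3% of its control mean, the long noncoding RNA UCA1 to 29.8%, and the antisense RNA HNRNPK-AS1 to 22.7% (log2 change -1.89, and -1.26 without replicate 1). HNRNPK-AS1 overlaps HNRNPK, which had 519 ± 31.2 FPKM in the controls and 427 ± 168 after MYB siRNA (SD, n = 3; limma adjusted p = 0.319). Reads of the pair can be told apart only if strand was used in counting, and the sources at hand do not name that setting. NKIRAS2, SLC40A1 and HNRNPK-AS1 lost their calls without control replicate 1 (limma adjusted p 0.0690 to 0.102), without control replicate 2 (0.0699 to 0.0827) and without control replicate 3 (0.0505 to 0.0856).

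A small set of genes was called under every setting run. In all, 15 genes were called under every one of 21 settings of library choice, scaling, filter and model, 12 lower and 3 higher; the set was picked after its values were seen. The 3 higher were MT-ATP6, MT-ATP8 and MT-CO3, listed at exactly 0 in the controls and taken up with the mitochondrial genes. The 12 were MYB, POLR1F, ZDHHC9, ENPP3, UCA1, LRRC40, SINHCAF, KCNH2, PPP2CB, TMX2, CNKSR3 and the gene ENSG00000237311, for which no symbol was found. KCNH2, the hERG potassium channel, had 246, 243 and 236 FPKM in the controls and 95.7, 104 and 104 after MYB siRNA. SINHCAF, a subunit of the SIN3 histone deacetylase complex, had 46.2, 50.1 and 45.7 FPKM and then 13.8, 17.1 and 17.4. PPP2CB, a catalytic subunit of protein phosphatase 2A, had 62.9, 64.7 and 58.8 FPKM and then 24.9, 22.9 and 23.0. In these genes MYB siRNA replicate 1 lay within or near the range of the other treated libraries. TMX2, a thioredoxin-related membrane protein, fell from 196 ± 6.93 to 72.7 ± 2.03 FPKM, LRRC40, a leucine-rich repeat protein, from 29.8 ± 2.06 to 9.72 ± 0.730, and CNKSR3, a scaffold of RAS signalling, from 16.2 ± 0.582 to 6.24 ± 0.371 (SD, n = 3).

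The 9 largest increases of nuclear genes that held with and without MYB siRNA replicate 1 and met the naming rule were NKG7, SNX15, S100A13, H1-2, S100A6, DHRS9, NDUFC2, BSCL2 and TAC3, each highest in that library. S100A6, a calcium-binding protein, had 9.92, 11 and 12.1 FPKM in the controls and 61.6, 30.6 and 30.1 after MYB siRNA (log2 change 1.72, limma adjusted p = 0.00350). TAC3, which encodes the neuropeptide neurokinin B, had 5.70, 5.94 and 3.61 FPKM and then 24.6, 15.6 and 12.4 (log2 change 1.58, limma adjusted p = 0.00503). DHRS9, a retinol dehydrogenase, had 1.80, 2.73 and 1.22 FPKM and then 11.6, 9.08 and 5.17 (log2 change 1.69, limma adjusted p = 0.00622). All treated values of these genes exceeded all control values. NKG7, a granule membrane protein of natural killer and T cells, rose to 28.1 FPKM in replicate 1 and to 6.06 and 4.77 in the others, from 0.869 to 2.51 in the controls. S100A13 rose to 412 FPKM in replicate 1 and to 74.3 and 63.8 in the others, from 24.9 to 36.2. The linker histone gene H1-2 rose to 768, 213 and 316 FPKM, from 92.6 to 142. Without replicate 1 the log2 changes were 1.35 for NKG7, 1.12 for S100A13 and 1.24 for H1-2.

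Of the leading increases, 3 overlap read-through genes that had lower means after MYB siRNA. SNX15, a sorting nexin, had 1.87, 1.94 and 1.75 FPKM in the controls and 17.8, 16.7 and 3.25 after MYB siRNA, while ARL2-SNX15 had 11, 12.1 and 12 and then 0, 0.0151 and 13.9. Their summed levels were 13.6 ± 0.635 and 17.2 ± 0.566 FPKM (SD, n = 3). The library that kept the read-through gene, replicate 3, was the library with little SNX15. NDUFC2, a complex I subunit, and NDUFC2-KCTD14 summed to 282 ± 28.1 FPKM and then 565 ± 274, and BSCL2, the lipid droplet protein seipin, and HNRNPUL2-BSCL2 to 21.3 ± 1.37 and then 44.3 ± 21.1. How the authors' program divided reads between such genes was not tested, and these 3 increases are uncertain. NKG7, S100A13, H1-2, BSCL2, NDUFC2 and SNX15 lost their calls without control replicate 1 (limma adjusted p 0.0886 to 0.128) or 2 (0.0637 to 0.106), and all of these except H1-2 lost them without control replicate 3 (0.0594 to 0.0784).

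**Figure D2:**
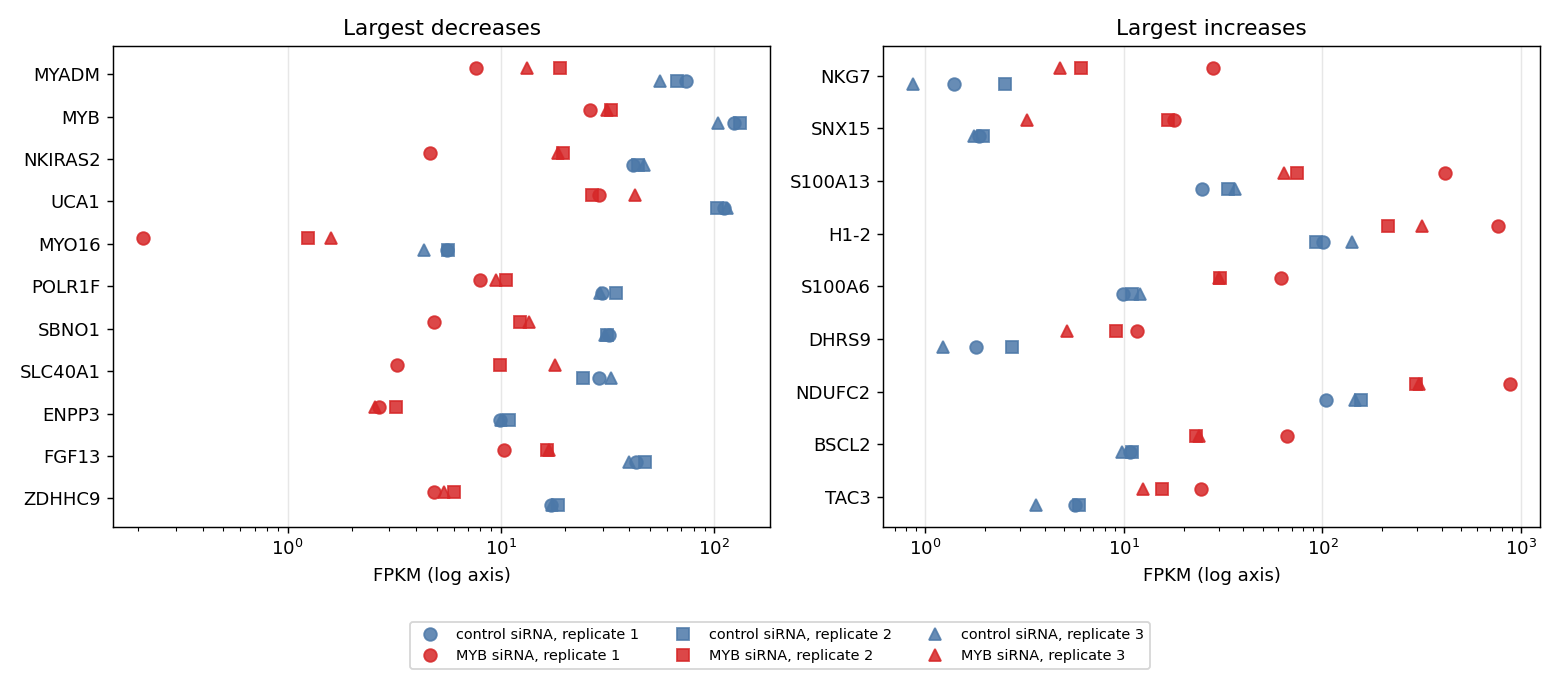
FPKM on a log axis for the largest decreases (left) and the largest increases (right), 1 point per library, blue for control siRNA and red for MYB siRNA, with the marker shape giving the replicate; HNRNPK-AS1 and the mitochondrial genes, with values of 0, are left out. In POLR1F, ENPP3 and ZDHHC9 the red points lie together, while in S100A13, NKIRAS2 and MYO16 replicate 1 (circles) stands away from the other red points.

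The mitochondrial genes MT-ATP8, MT-CO3 and MT-ATP6, which encode subunits of ATP synthase and cytochrome oxidase, were listed at 0 in all 3 controls and in all 6 libraries of the other lines. After MYB siRNA they were listed at 18680, 39710 and 38300 FPKM, at 16310, 9906 and 12230, and at 6183, 5185 and 5132. Another mitochondrial gene, MT-CO2, had 24730, 16460 and 18140 FPKM in the controls and 21570, 10340 and 12560 after MYB siRNA. Because an exact 0 can be a failed estimate, no fold is given. In the opposite direction, the small gene RSC1A1 was listed at 0 in the 3 MYB siRNA libraries and at 2.84, 4.32 and 3.92 FPKM in the controls. None of the other 10 mitochondrially encoded messengers was called in the values as deposited, and 6 were called lower after quantile normalization.

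Among genes that earlier work places under MYB, and among the blood cell regulators around it, the calls were mostly decreases. Calls over all tested genes were also mostly decreases (8.25% lower and 4.45% higher). Of 19 tested literature targets 5 fell (26.3%) and none rose. Of 29 erythroid and megakaryocyte transcription factors 7 fell (24.1%) and 1 rose (3.45%). IKZF1, which encodes the lymphoid and erythroid regulator Ikaros, had 28.8, 31.1 and 26.8 FPKM in the controls and 9.75, 17.9 and 16.1 after MYB siRNA. CBFB, the partner of RUNX proteins on DNA, had 51.9, 54.4 and 48.8 FPKM and then 19.3, 33.4 and 32.1. Both groups of values lay apart in each gene, with replicate 1 the lowest (log2 changes -0.98 and -0.88, both with a limma adjusted p of 0.0139). GATA1, the central erythroid factor, had 109, 100 and 135 FPKM and then 122, 117 and 135, and did not pass the test (limma adjusted p = 0.537).

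CDK6, a kinase that drives G1 progression in blood progenitors, had 32.2, 32.8 and 27.9 FPKM in the controls and 15.4, 20.1 and 19.2 after MYB siRNA (log2 change -0.74, limma adjusted p = 0.00673). SLC1A5, a glutamine transporter, had 291, 327 and 280 FPKM and then 182, 237 and 215, a smaller decrease at the edge of the threshold (log2 change -0.51, limma adjusted p = 0.0493). Further decreases were to 44% of the control mean in LMO2, a bridging factor of the TAL1 complex, to 47.3% in MYC and to 45.3% in KIT, the stem cell factor receptor. Of 32 coactivators and corepressors of MYB 4 fell (12.5%, beside 8.25% of all tested genes) and none rose. EP300 fell to 49.2%, PIAS1 to 57.8% and SIN3A to 55.2%. The median log2 change was -0.25 over the targets, -0.19 over the transcription factors and -0.32 over the coactivators and corepressors, beside -0.03 over all tested genes. Without MYB siRNA replicate 1 the counts of decreases were 8, 9 and 13, beside 14.1% of all tested genes. Of the 10 named decreases 7 lost their calls without control replicate 1 (limma adjusted p 0.0597 to 0.131) or 2 (0.0644 to 0.166), all but LMO2, CDK6 and MYC; SLC1A5 and KIT lost theirs without control replicate 3 (0.0900 and 0.0905), and SLC1A5 without MYB siRNA replicate 3 (0.0566).

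Calls among signalling genes downstream of cytokine receptors and of BCR-ABL1 were mostly decreases, as they were over all tested genes (8.25% lower and 4.45% higher). Of 25 JAK-STAT genes 4 fell and none rose, of 31 BCR-ABL1 adaptors and RAS-MAPK genes 6 fell and 1 rose, and of 28 PI3K and mTOR genes 3 fell (10.7%, near the share over all genes) and none rose. Without MYB siRNA replicate 1 the decreases numbered 5, 11 and 7, and after median-ratio scaling 4, 2 and 3. Over all tested genes 14.1% and 6.49% fell in these fits. JAK2, the kinase bound to the erythropoietin receptor, had 12.3, 12.2 and 12.2 FPKM in the controls and 6.04, 7.31 and 9.28 after MYB siRNA. STAT3, a transcription factor activated by JAK kinases, had 56.0, 48.1 and 55.0 FPKM and then 35.1, 35.4 and 37.6, and STAT5A fell to 47.7% of its control mean. SOS1, the exchange factor that loads RAS with GTP, had 18.5, 15.8 and 14.7 FPKM and then 5.0, 9.45 and 8.91. All treated values lay below all control values in each of these genes.

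The adaptor GAB1 fell to 53.1% of its control mean, the mTOR complex subunit RICTOR to 58.4%, the kinase GSK3A to 62.5% and the translation repressor EIF4EBP2 to 67.8%. The RAS-MAPK increase was DUSP5, an ERK phosphatase, with 1.25, 1.30 and 0.975 FPKM in the controls and 4.13, 2.87 and 2.44 after MYB siRNA (log2 change 0.91, limma adjusted p = 0.0136). CRKL, a main adaptor of BCR-ABL1, had 125, 129 and 122 FPKM and then 46.8, 102 and 89.7, and missed the threshold with replicate 1 (limma adjusted p = 0.0612) but not without it (limma adjusted p = 0.0233). PIM1, a STAT5 target kinase, had 120, 123 and 127 FPKM and then 122, 179 and 174, and it too passed only without replicate 1 (limma adjusted p = 0.15 with it and 0.00447 without). The list medians without replicate 1 were -0.04, -0.22 and -0.16. STAT3 and GAB1 lost their calls once a trend with transcript length was removed (limma adjusted p 0.0616 to 0.0778). Of 9 named calls 8 were lost without control replicate 1 (limma adjusted p 0.0582 to 0.136) or 2 (0.0516 to 0.0826), all but STAT5A, and JAK2, STAT3, GAB1 and RICTOR without control replicate 3 (0.0603 to 0.0940).

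Several enzymes of nucleotide synthesis fell. Of 24 purine and pyrimidine synthesis genes 5 fell (20.8%) and none rose. In the MYC network 6 of 29 genes fell (20.7%) and none rose. Over all tested genes 8.25% fell and 4.45% rose. GART, an enzyme that carries several steps of purine synthesis, had 383, 414 and 387 FPKM in the controls and 85.5, 194 and 202 after MYB siRNA (log2 change -1.39, and -0.99 without replicate 1). PAICS, the next enzyme of the pathway, had 454, 476 and 423 FPKM and then 296, 298 and 298, nearly the same level in each treated library (log2 change -0.60, limma adjusted p = 0.0137). SHMT2, the mitochondrial serine hydroxymethyltransferase that supplies one-carbon units, had 196, 199 and 215 FPKM and then 54.4, 124 and 111 (log2 change -1.15). In GART and SHMT2 replicate 1 was the lowest library, and the groups did not overlap.

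MLXIP, a glucose-sensing partner of the MYC network, fell from 25.6 ± 0.574 to 12.4 ± 2.84 FPKM, and MYCL, a MYC paralog, from 3.00 ± 0.0907 to 1.94 ± 0.123 (SD, n = 3). LDHA had 1733, 1462 and 1669 FPKM and then 1617, 983 and 991; it passed the test only without replicate 1 (limma adjusted p = 0.113 with it and 5.89e-04 without). Of 61 translation factors 7 fell (11.5%) and 1 rose, and of 23 aminoacyl-tRNA synthetases 2 fell (8.70%) and none rose. These shares of decreases lay near the 8.25% over all tested genes. EIF4ENIF1, which carries the cap-binding protein into the nucleus, fell to 59.0% of its control mean, IARS1 to 68.4% and YARS1 to 71.0%, while EIF6, a factor that keeps ribosomal subunits apart, rose from 69.7, 73.3 and 77.4 FPKM to 135, 127 and 108. Without MYB siRNA replicate 1 the decreases numbered 9 for nucleotide synthesis, 12 for the MYC network, 15 for translation factors and 7 for the synthetases. In that fit 5 translation factors and 1 synthetase rose, and over all tested genes 14.1% fell and 8.0% rose. Quantile normalization gave 13 decreases and 4 increases among translation factors and 11 and 1 in the MYC network. After median-ratio scaling 4 fell and 1 rose in each of these lists. With a trend with transcript length removed 6 translation factors, 3 MYC network genes and 3 nucleotide synthesis genes fell, and none rose. Of all genes in these fits 9.05%, 6.49% and 8.58% fell. PAICS, MYCL and EIF6 lost their calls once a trend with transcript length was removed (limma adjusted p 0.0521 to 0.109). Of 9 named calls 7 were lost without control replicate 1 (limma adjusted p 0.0506 to 0.135), 6 without control replicate 2 (0.0601 to 0.131) and 4 without control replicate 3 (0.0545 to 0.0986), and MLXIP and EIF4ENIF1 were called in each of these fits.

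Among 25 cholesterol synthesis genes 3 fell and none rose, where 8.25% of all tested genes fell and 4.45% rose. The median log2 change of the list was 0.20. CYP51A1, the lanosterol demethylase, had 60.1, 54.5 and 68.8 FPKM in the controls and 24.1, 23.8 and 29 after MYB siRNA, with no overlap (log2 change -1.22, standard error 0.12, limma adjusted p = 3.74e-04). SREBF1, a transcription factor of lipid synthesis, fell to 55.9% of its control mean. Of 23 glycolysis genes 2 fell (8.70%) and 1 rose (4.35%), near the shares over all tested genes. PFKFB3, which makes the activator of phosphofructokinase, fell to 47.3% and hexokinase HK1 to 72.7%. The enolase gene ENO2 rose from 22.8, 23.4 and 21.9 FPKM to 28.3, 37.1 and 37.1. ENO2 lost its call once a trend with transcript length was removed (limma adjusted p = 0.0686). Of these 5 named calls only CYP51A1 was made without control replicate 1 (the others at a limma adjusted p of 0.0657 to 0.144), without control replicate 2 (0.0623 to 0.110) and without control replicate 3 (0.0512 to 0.124).

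Of all the lists, chromatin regulators had the largest number of decreases. Of 52 chromatin remodelling and methylation genes 17 fell (32.7%, beside 8.25% of all tested genes) and none rose, with a median log2 change of -0.53. Without MYB siRNA replicate 1, 23 fell and the median was -0.30, and after a trend with transcript length was removed 12 fell. Of all genes in these fits 14.1% and 8.58% fell. KDM2A, a histone demethylase that binds CpG islands, had 33.9, 33.9 and 27.9 FPKM in the controls and 12.1, 17.5 and 16.1 after MYB siRNA (log2 change -1.03, limma adjusted p = 0.00583). ARID2, a subunit of the PBAF remodeller, had 10.9, 11 and 9.64 FPKM and then 6.22, 6.51 and 6.06, and CHD1, a remodeller of transcribed genes, had 47.3, 44.4 and 43.2 and then 31.5, 26.4 and 27.4. In both genes replicate 1 lay among or above the other treated libraries. BRD2, an acetyl-lysine reader and the most abundant of the 4 named, fell to 78.5% of its control mean.

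Of 32 Mediator subunits 3 fell (9.4%, near the 8.25% of all tested genes) and none rose, and the median log2 change was 0.04. MED25 fell to 57.3% of its control mean, MED13L to 49.9% and MED14 to 63.1%. Of 52 spliceosome and SR protein genes 3 fell (5.77%) and 2 rose (3.85%), beside 8.25% and 4.45% of all tested genes. SRRM1, a nuclear matrix coactivator of splicing, had 140, 134 and 113 FPKM and then 31.3, 58.0 and 62.7 (log2 change -1.38, and -1.07 without replicate 1). SRSF4 fell to 68.2% of its control mean, while SNRPB, a core protein of spliceosomal particles, rose from 85.3, 94.2 and 94.5 FPKM to 241, 136 and 128. Without replicate 1 the splicing list had 15 decreases and 7 increases, beside 14.1% and 8.0% of all tested genes. Of these 10 named calls 7 were lost without control replicate 1 (limma adjusted p 0.0522 to 0.128), 5 without control replicate 2 (0.0863 to 0.166) and 4 without control replicate 3 (0.0668 to 0.116), with KDM2A, MED25 and SRRM1 called in each of these fits. BRD2 was also lost without MYB siRNA replicate 2 (0.0786) or 3 (0.0610), and ARID2, CHD1 and BRD2 with the length trend removed (0.0546 to 0.313).

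Ribosomal protein and respiratory chain genes were called higher more often than lower. Of 84 cytosolic ribosomal protein genes 29 rose and none fell, of 38 complex I genes 13 rose and none fell, and of 42 genes of complexes II to V 9 rose and 1 fell. Of 78 mitochondrial ribosomal protein genes 7 rose (8.97%) and 2 fell, where 4.45% of all tested genes rose and 8.25% fell. The sizes differed sharply between libraries: the median log2 difference from the control mean over the cytosolic ribosomal proteins was 1.70, 0.45 and 0.37 in MYB siRNA replicates 1 to 3, and over complex I it was 1.38, 0.31 and 0.36. Without replicate 1, 51 cytosolic ribosomal protein genes and 23 complex I genes rose and none fell. Of complexes II to V 18 rose and 2 fell, and of mitochondrial ribosomal proteins 15 rose and 9 fell. Over all tested genes 8.0% rose and 14.1% fell without replicate 1. RPL39 had 1122, 1222 and 1252 FPKM in the controls and 2824, 2886 and 2260 after MYB siRNA, and RPS27 had 1830, 2013 and 2148 and then 3826, 4508 and 3599, without replicate 1 standing apart. RPL41 had 1338, 1550 and 1893 FPKM and then 5684, 3313 and 3414.

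NDUFB1, an accessory subunit of complex I, had 88.1, 100 and 116 FPKM in the controls and 451, 197 and 213 after MYB siRNA (log2 change 1.39, and 1.01 without replicate 1). NDUFB8 rose to 216% of its control mean and NDUFB2 to 228%. COX7C rose from 295, 284 and 334 FPKM to 750, 533 and 507, and ATP5ME, a small subunit of ATP synthase, from 353 ± 30.7 to 852 ± 344 (SD, n = 3). The decrease was COX7A2L, a factor that joins respiratory complexes, with 233, 243 and 239 FPKM and then 156, 103 and 118 (log2 change -0.94, limma adjusted p = 0.00584). MRPL27, MRPL13 and MRPL33 rose to 210%, 145% and 158% of their control means. In replicate 1 the FPKM total moved with these lists, while the totals of replicates 2 and 3 lay within the control range. With the length trend removed 25 cytosolic ribosomal protein genes rose and 1 fell, and 9 complex I genes rose. Of complexes II to V 5 rose and 1 fell in that fit, and of mitochondrial ribosomal proteins 4 rose and 3 fell. Over all genes in that fit 3.74% rose and 8.58% fell. RPS27, MRPL33 and MRPL13 lost their calls there (limma adjusted p 0.15 to 0.57). After quantile normalization 26 cytosolic ribosomal protein genes rose and 1 fell. RPL39 and RPS27 were not called after it (limma adjusted p 0.0755 to 0.324 over the 3 genes lost). Of 12 named calls 8 were lost without control replicate 1 (limma adjusted p 0.0554 to 0.0959) and 7 without control replicate 2 (0.0501 to 0.0870), and MRPL13 and MRPL27 without control replicate 3 (0.0678 and 0.0702).

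**Figure D3:**
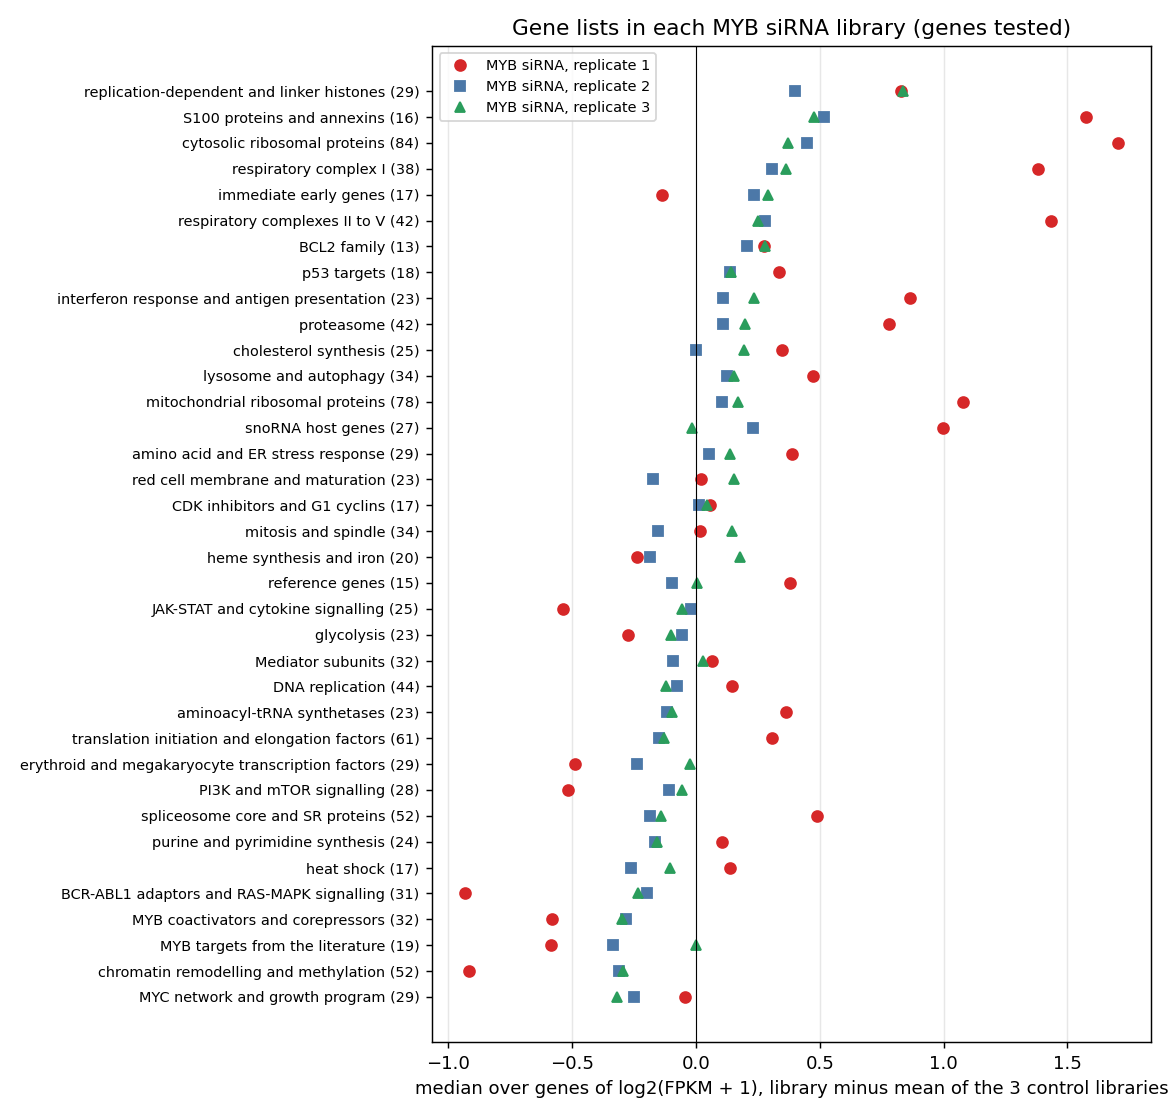
For each gene list (number of tested genes in parentheses) the horizontal axis gives the median over its genes of log2(FPKM + 1), library minus the mean of the 3 controls, with 1 point per MYB siRNA library. Cytosolic ribosomal proteins lie at 1.70 in replicate 1 and at 0.45 and 0.37 in replicates 2 and 3, and chromatin genes at -0.92, -0.31 and -0.29.

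Protein breakdown genes were called higher more often than lower in the values as deposited. Of 42 proteasome genes 7 rose (16.7%) and none fell, and of 34 lysosome and autophagy genes 5 rose (14.7%) and 1 fell. Over all tested genes 4.45% rose and 8.25% fell. SQSTM1, the autophagy receptor p62, had 42.6, 58.3 and 54.0 FPKM in the controls and 112, 146 and 109 after MYB siRNA, with replicate 2 the highest (log2 change 1.23, limma adjusted p = 0.00436). NEU1, the lysosomal sialidase, had 48.9, 56.9 and 58.6 FPKM and then 106, 83.1 and 85.4. PSAP, the precursor of the lysosomal saposins, went the other way, from 301, 359 and 375 FPKM to 132, 159 and 159 (log2 change -1.20, limma adjusted p = 0.00134). The proteasome subunits PSMC3 and PSMD9 rose to 156% and 160% of their control means. The interferon-inducible subunit PSMB8 rose from 0.693, 0.703 and 0.766 FPKM to 1.97, 1.60 and 1.78. PSMB8 passed the filter only through the MYB siRNA libraries, which set its direction in advance. Without MYB siRNA replicate 1 the proteasome list had 16 increases and 2 decreases, beside 8.0% and 14.1% of all tested genes. PSMB8, PSMD9, PSMC3 and NEU1 lost their calls without control replicate 1 (limma adjusted p 0.0571 to 0.0870) or 2 (0.0520 to 0.0698). With the length trend removed PSMB8 and PSMC3 lost theirs (limma adjusted p 0.057 to 0.189). In that fit 4 proteasome genes rose and none fell, and 3 lysosome and autophagy genes rose and 3 fell.

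The red cell program did not move as a block. None of 8 tested globin genes was called, and their median log2 difference from the controls was 2.18, -0.09 and 1.08 in MYB siRNA replicates 1 to 3. Of 23 red cell membrane and maturation genes 3 rose and 3 fell, and of 20 heme and iron genes 1 fell and none rose. Over all tested genes 4.45% rose and 8.25% fell. HEMGN, an erythroid nuclear protein, had 153, 106 and 144 FPKM in the controls and 56.6, 47.2 and 79.2 after MYB siRNA (log2 change -1.14, limma adjusted p = 0.00944). SPTB, erythrocyte beta-spectrin, had 10.3, 8.81 and 11.8 FPKM and then 4.97, 5.4 and 7.72, and STEAP3, the reductase that lets iron leave endosomes, had 8.85, 8.80 and 9.70 and then 4.0, 6.54 and 5.74. CD47, the surface signal against phagocytosis, rose from 16.3, 15.3 and 18.3 FPKM to 41.5, 22.7 and 28.6. FTL, the ferritin light chain, had 5797, 6775 and 6190 FPKM and then 10430, 7475 and 8509, and did not pass the test (limma adjusted p = 0.165).

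S100 proteins and annexins, calcium-binding proteins of maturing myeloid cells and of many other cell types, moved upward when called. Of 16 tested 6 rose (37.5%, beside 4.45% of all tested genes) and none fell. Without MYB siRNA replicate 1, 8 rose, beside 8.0% of all tested genes. S100A4 had 1.71, 1.37 and 2.97 FPKM in the controls and 11.3, 5.21 and 6.72 after MYB siRNA (log2 change 1.51, limma adjusted p = 0.0149). ANXA2, the most abundant of the list, had 330, 354 and 343 FPKM and then 889, 532 and 475. ANXA9 had 0.785, 0.540 and 0.685 FPKM and then 1.46, 1.65 and 1.90. It passed the filter only through the MYB siRNA libraries, which set its direction in advance. With the length trend removed SPTB and ANXA9 lost their calls (limma adjusted p 0.071 to 0.188). Of the 8 calls named for the red cell, iron, S100 and annexin lists, counting S100A6, 7 were lost without control replicate 1 (limma adjusted p 0.0571 to 0.102), all but S100A6, 6 without control replicate 2 (0.0534 to 0.0990) and SPTB, STEAP3, ANXA9 and ANXA2 without control replicate 3 (0.0649 to 0.0729).

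Of 13 tested BCL2 family genes 2 rose and 1 fell, where 4.45% of all tested genes rose and 8.25% fell. BAD, a death-promoting member, had 4.02, 4.14 and 5.15 FPKM in the controls and 14.6, 8.57 and 10.4 after MYB siRNA. BCL2L11, which encodes the death-promoting protein BIM, had 8.23, 10.7 and 7.89 FPKM and then 4.65, 6.16 and 5.85, and BCL2A1, a survival member, had 0.0811, 0.333 and 0.231 and then 2.03, 1.04 and 1.5. The groups did not overlap in BAD or BCL2L11. BCL2A1 stayed below 1 FPKM in all controls, so it passed the filter only through the MYB siRNA libraries. Its direction and lack of overlap were therefore set by the filter. Of 17 CDK inhibitors and G1 cyclins and kinases 2 rose, CDK4 to 143% and CDKN1B to 133% of their control means, and CDK6 fell.

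Of 17 immediate early genes 2 rose (11.8%) and none fell, where 4.45% of all tested genes rose and 8.25% fell. BTG1, an antiproliferative protein, had 14.3, 15.0 and 12 FPKM in the controls and 44.6, 25.1 and 24.0 after MYB siRNA (log2 change 1.08, limma adjusted p = 0.0121), and IER5 rose to 138% of its control mean. Of 18 p53 targets 1 fell, the ribonucleotide reductase gene RRM2B, to 71.6%. Of the 9 calls named for the survival, G1, immediate early and p53 lists 6 were lost without control replicate 1 (limma adjusted p 0.0543 to 0.153). Without control replicate 2, 5 were lost (limma adjusted p 0.110 to 0.132), and without control replicate 3, 5 (limma adjusted p 0.0558 to 0.122). BAD and CDK6 were called in each of these fits, as was BCL2A1, whose direction was set by the filter. CDKN1B was also lost without MYB siRNA replicate 2 or 3 and RRM2B without replicate 2 (0.0606 to 0.0883). With the length trend removed BCL2L11, CDKN1B and RRM2B were lost (limma adjusted p 0.0511 to 0.101).

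Of 44 DNA replication genes 1 rose and 1 fell, and without MYB siRNA replicate 1, 2 rose and 8 fell. Of 34 mitosis genes 2 rose and 1 fell with and without that library. Over all tested genes 4.45% rose and 8.25% fell, and without that library 8.0% rose and 14.1% fell. ORC4, an origin recognition subunit, had 82.3, 93.2 and 84.3 FPKM in the controls and 40.6, 60.8 and 59.3 after MYB siRNA, and RPA3, the small subunit of the single-strand binding protein, had 19.0, 21.3 and 25.7 and then 94.9, 36.8 and 38.0. CDK1, the mitotic kinase, had 223, 199 and 235 FPKM and then 221, 193 and 241 (log2 change -0.01, limma adjusted p = 0.978). The kinetochore gene NDC80 and the centromeric histone gene CENPA rose to 166% and 153% of their control means, while CENPF fell to 69.1%. Of 29 tested histone genes 10 rose and none fell, a count that was 1 with the length trend removed. CENPF, CENPA, H2AC6, H2AC25 and H2BC12 lost their calls in that fit (limma adjusted p 0.109 to 0.496). H2AC6 had 56.8, 51.3 and 64.6 FPKM and then 138, 82.2 and 103, H2AC25 rose to 191% and H2BC12 to 162%. Poly(A) selection captures few histone messages, which mostly lack a tail. Of the 9 calls named for replication, mitosis and histones, counting H1-2, none was made without control replicate 1 (limma adjusted p 0.0837 to 0.154) or 2 (0.0637 to 0.164), 6 were lost without control replicate 3 (0.0530 to 0.0748), and NDC80, CENPA and H2BC12 without MYB siRNA replicate 3 (0.0520 to 0.0883).

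Of 23 interferon and antigen presentation genes 4 rose (17.4%) and 1 fell (4.35%), where 4.45% of all tested genes rose and 8.25% fell. IFITM1, a membrane protein that restricts virus entry, had 171, 155 and 188 FPKM in the controls and 301, 291 and 248 after MYB siRNA, and IFI16, a DNA sensor, rose to 159% of its control mean. Of 27 tested genes on the list of snoRNA host genes 4 rose (14.8%), and only TUG1 fell. SNHG25 was listed at 0, 0.547 and 0 FPKM and then at 5.03, 2.02 and 2.72. It passed the filter only through the MYB siRNA libraries, which set its direction in advance. SNHG8 rose to 210%, and TUG1 had 64.9, 67.7 and 59.5 FPKM and then 20.2, 37.6 and 38.6. Of 29 amino acid and ER stress genes ATF5 fell to 54.7% and DDIT3 rose to 197%, the latter from 16.7, 21.0 and 19.7 FPKM to 59.0, 28.0 and 26.0. None of 17 heat shock genes, 6 tested platelet markers or 15 reference genes was called with all libraries. Without replicate 1, 4 heat shock genes fell, and 2 reference genes rose and 2 fell. Over all tested genes 8.0% rose and 14.1% fell in that fit. Of the 8 calls named for the interferon, host gene and stress lists, counting PSMB8, 6 were lost without control replicate 1 (limma adjusted p 0.0571 to 0.152), 7 without control replicate 2 (0.0516 to 0.108), and IFI16 and DDIT3 without control replicate 3 (0.0850 to 0.0969). IFITM1 was not called after quantile normalization (limma adjusted p = 0.0813), and neither IFITM1 nor PSMB8 was called with the length trend removed (0.282 and 0.189).

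The called genes differed in transcript length. The median length was 4142 bases for genes that fell, 1430 bases for genes that rose and 2851 bases for all tested genes. With the genes in 4 groups of rising length, in the shortest group (up to 1623 bases) 10.0% rose and 2.21% fell, and in the longest group (4687 bases and more) 1.33% rose and 14.0% fell. All 3 MYB siRNA libraries showed the gradient, and replicate 1 most: its median log2 difference from the control mean was 0.80 in the shortest group and -0.54 in the longest. Replicate 2 had 0.10 and -0.16, and replicate 3 had 0.12 and -0.13. The control libraries, each against the other 2, stayed between -0.06 and 0.05 in these groups. Without replicate 1 the gradient in calls was still there, with 16.6% rising in the shortest group and 21.1% falling in the longest. Removing a length trend from each library left 1056 decreases (8.58% of 12312 genes with a length) and 461 increases (3.74%).

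**Figure D4:**
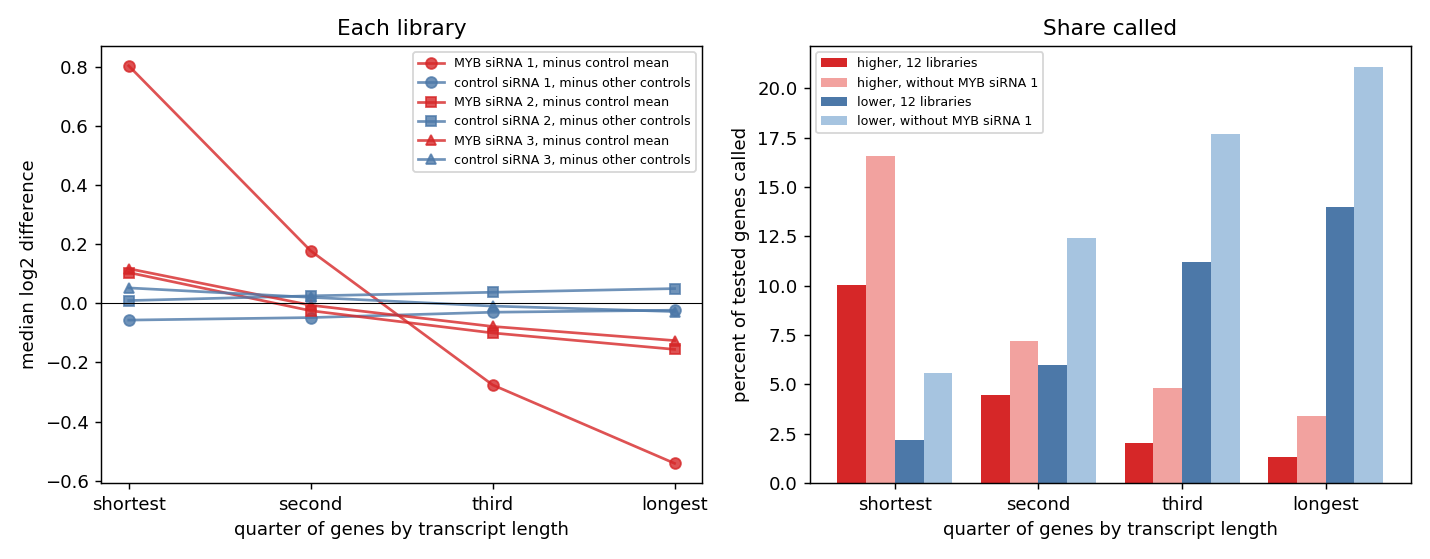
Left, the median log2 difference in 4 groups of genes ordered by transcript length, red for each MYB siRNA library against the control mean and blue for each control against the other 2 controls; right, the percent of genes in each group called higher (red) or lower (blue), with lighter bars for the fit without MYB siRNA replicate 1. Replicate 1 runs from 0.80 to -0.54, the other treated libraries from about 0.10 to -0.16, and the share called lower climbs from 2.21% to 14.0%.

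Other properties that the choice of libraries did not use varied less. Long noncoding RNAs made up 5.99% of genes that fell, 8.6% of genes that rose and 10.2% of all tested genes. The share of genes that fell ranged over chromosomes from 6.07% on chromosome 19 to 12.6% on chromosome 13, and the share that rose from 1.10% on chromosome 13 to 6.72% on chromosome 6, which carries the main histone cluster. Of protein-coding genes that fell 47.2% overlapped another RefSeq gene, as did 43.0% of those that rose and 45.6% of those tested.

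The lines carrying MYB transgenes received the same siRNA, and the leading decreases stood at different levels in them. MYB itself was at 103% of the control mean in the wild-type MYB line and at 75.8% in the D152V line. ENPP3, SLC40A1, UCA1, MYO16 and CNKSR3 were at 251%, 191%, 159%, 150% and 132% in the wild-type MYB line, and at 49.8%, 52.6%, 49.8%, 64.7% and 54.9% in the D152V line. Of these 5, ENPP3 was called against the controls in the wild-type MYB line (limma adjusted p = 0.00216), and UCA1, CNKSR3, SLC40A1 and MYO16 were not (0.0780, 0.0961, 0.214 and 0.323). For POLR1F, LRRC40, PPP2CB, TMX2 and ZDHHC9 the levels were 42.8%, 47.5%, 43.6%, 52.4% and 44.1% in the wild-type MYB line and 36.0%, 34.3%, 36.9%, 43.3% and 53.2% in the D152V line. POLR1F had 13.1, 15.7 and 11.3 FPKM in the wild-type MYB line, below the 29.2 to 34.6 of the controls (limma adjusted p = 0.00179). PPP2CB was 1.17 lower on the log2 scale there than in the controls (limma adjusted p = 2.10e-04), and its difference from the tag-only line given MYB siRNA was 0.19 (limma adjusted p = 0.223). LRRC40, TMX2, ZDHHC9 and POLR1F were called higher in the wild-type MYB line than in that treated line (limma adjusted p = 0.00823, 0.0153, 0.0242 and 0.0417). Their log2 differences were 0.50, 0.48, 0.45 and 0.47. ENPP3 was higher in the wild-type MYB line than in the tag-only line given MYB siRNA by 2.80 on the log2 scale (limma adjusted p = 6.90e-06). Of all tested genes, 4.56% were called lower in the wild-type MYB line than in the controls, and 20.2% were called higher there than in the tag-only line given MYB siRNA. FGF13 was at 20.8% of the control mean in the wild-type MYB line and at 85.3% in the D152V line. The comparisons share the control libraries, the genes were picked after their values were seen, and the effects of the siRNA, of the line and of the transgene cannot be told apart in the lines that carry MYB.

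**Figure D5:**
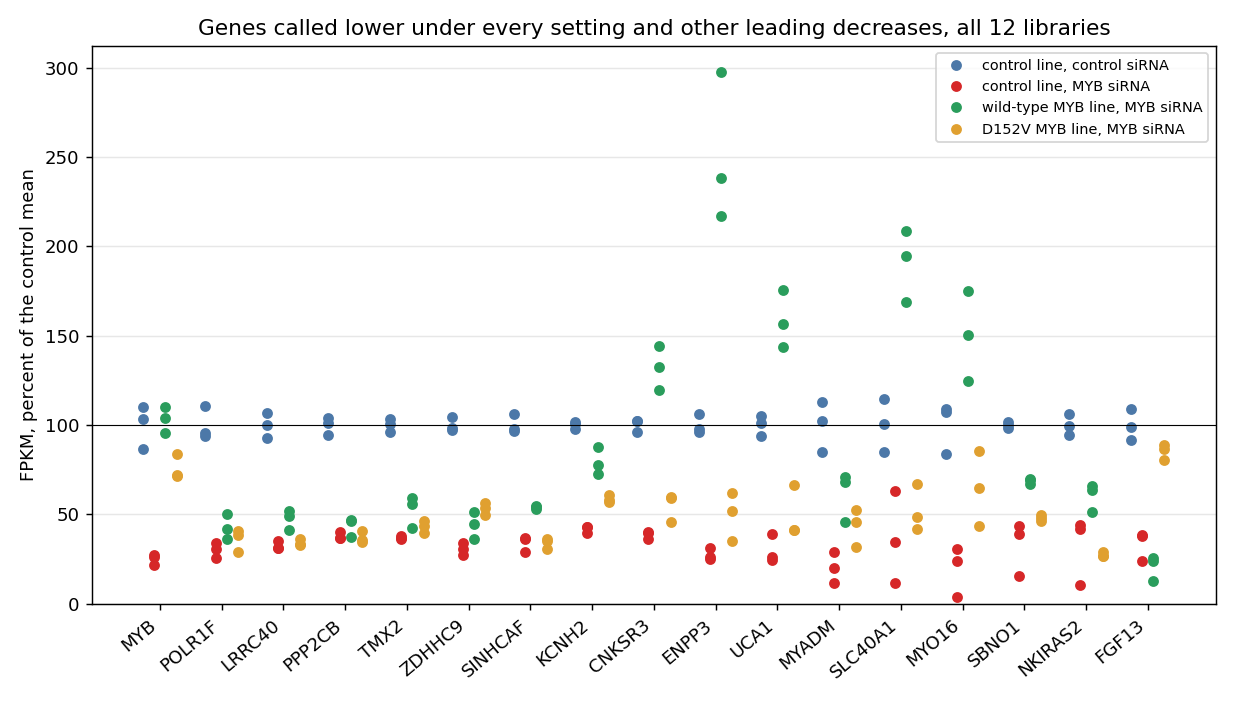
FPKM of MYB and of leading decreases in all 12 libraries, as a percent of the mean of the 3 control libraries, 1 point per library and color by group. POLR1F, LRRC40, PPP2CB, TMX2 and ZDHHC9 lie below the control points in all 9 libraries given MYB siRNA, while ENPP3, UCA1, SLC40A1, MYO16 and CNKSR3 lie above the control points in all 3 libraries of the wild-type MYB line.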

How the data were processed

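Gene-level FPKM for 12 libraries (4 groups of 3) were used as the authors deposited them, 60658 rows, per the file headers. The submitters' processing notes name Cufflinks 2.2.1 and TopHat2 2.0.13, further Trimmomatic 0.33 and, for base calls, bcl2fastq 2.17.1.14, with the build GRCh38. The gene annotation and the strand setting, not given in the sources used here, bear on overlapping genes. FPKM divides by transcript length and mapped fragments, so it depends on the authors' gene models, and fragments of overlapping genes may be divided between them. Whole reads could not be recovered (3.80% of low-value ratios lay within 2% of the pair median), so the depth behind each value is unknown. No pair of libraries held identical values.

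Genes with at least 1 FPKM in 3 or more of the 6 libraries were tested as log2(FPKM + 1), which understates the change of low genes, with limma 3.58.1 (R 4.3.3) and Benjamini-Hochberg adjustment over 12551 genes. All 4 groups entered the fit, no library was imputed, and the fit was tested on simulated data. Of the tested genes 91.9% had a symbol. The text names MYB, the 12 largest changes per direction called with and without MYB siRNA replicate 1 with groups apart and a mean of at least 5 FPKM, and up to 3 called members per list with the smallest adjusted p. Small RNAs, clone names and read-through genes were left out, and uncalled genes are named from the 2 most abundant of a list; a gene that met the rule is not reported here. Members and 45 gene lists were chosen with earlier results of these data known. The 45 lists hold 1153 tested genes, of which 206 were called. Transcript lengths came from a GRCh37 annotation, matched by gene identifier, and promoters, gene positions and gene neighbours from RefSeq tables of GRCh38.p14. Alternatives changed the pseudocount, filter, scaling, libraries, replicate block, length trend and moderation; library weights and 3 further combinations without MYB siRNA replicate 1 were added after seeing the data. Python 3.11.15 (pandas 2.3.3, matplotlib 3.10.9) was used elsewhere.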

Additional observations from a re-analysis of the deposited data

How the results depend on the processing

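MYB was called lower under every setting, at log2 changes of -1.77 to -2.05. The counts of genes called higher and lower, 558 and 1035 as reported, were 249 and 567 without a filter on low values, 971 and 1136 after quantile normalization, and 4 and 14 with only the 6 libraries compared. Leaving out 1 library at a time gave 43 to 1147 higher and 149 to 1766 lower. Among settings added after seeing the data, the 5 libraries without MYB siRNA replicate 1 gave 1109 and 1856, library weights 1436 and 2228, quantile normalization without that replicate 1333 and 1524, and the replicate block without it 1284 and 2448. The called genes on the lists, 206 as reported, were 90 without the filter, 4 with only the 6 libraries, 25 to 398 leaving out 1 library, and 420, 480, 386 and 521 under the same added settings. The causes were not tested. The replicate block with all libraries gave 637 higher and 1195 lower, and with the length trend removed 577 and 1318. Same-numbered control and MYB siRNA libraries deviated together with r = 0.0405, 0.168 and 0.0878 across genes. For differently numbered libraries r was -0.16 to 0.0406. The main fit did not take the numbers as pairs, and these values do not settle whether they are. Of 116 named called genes 4 lost their call under the block, 9 after quantile normalization, 25 with the length trend removed, 36 without the filter and 109 with only the 6 libraries, and none changed direction in any setting. Leaving out control replicates 1, 2 or 3 cost 82, 77 and 47 of these calls, and MYB siRNA replicates 1, 2 or 3 cost 0, 3 and 6. Unknown depth limits genes near 1 FPKM most, and no interval for counting error could be given.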
